A study of Mus musculus with 13 samples.

Results

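The Hox gene clusters were followed through 6 ChIP-seq peak lists from 4T1 cells. The 38 genes considered here lie in 4 clusters. They are Hoxa2, a3, a4, a5, a6, a7, a9, a10, a11 and a13 on chromosome 6 (10 genes), Hoxb1 to Hoxb9 and Hoxb13 on chromosome 11 (10 genes), Hoxc4 to Hoxc6 and Hoxc8 to Hoxc13 on chromosome 15 (9 genes), and Hoxd1, d3, d4 and d8 to d13 on chromosome 2 (9 genes). Each gene was found by its symbol. Of the 38 genes, 26 were paired with a peak in any list, against 18562 genes of all kinds. The genes found were 10 of 10 Hoxa, 5 of 10 Hoxb, 5 of 9 Hoxc and 6 of 9 Hoxd. Hoxb1, b2, b4, b5, b7, Hoxc4, c6, c8, c11, Hoxd4, d8 and d9 were in no list.

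The 4T1 line is a spontaneous mammary tumor line from BALB/cJ mice. The sg-Ctrl cells carry a non-targeting sgRNA. The KO cells carry a CRISPR/Cas9 knockout of Nup210, which encodes a membrane-anchored nucleoporin, and the KO library is from the clone labelled N13, so the knockout is represented by 1 clone grown from a single cell. H3K27me3 and H3K4me3 were profiled in sg-Ctrl and KO cells, and NUP210 and NPC (MAb414, an antibody that binds several nuclear pore proteins) in sg-Ctrl cells alone. Each condition has 1 library. No test over replicates was possible, and intervals below cover counting error only.

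Hox genes encode homeodomain transcription factors that set position along the body axis. Within a cluster the genes are activated in the order in which they stand, and genes with the same number in different clusters (paralogs) descend from a common ancestor. Their silent state is kept by Polycomb group proteins, of which PRC2 deposits H3K27me3. Their active state is kept by trithorax group proteins, some of which deposit H3K4me3. Several Hox genes are expressed in the mammary gland.

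The lists give for each peak the ChIP reads, the IgG reads, a fold over IgG scaled by library size, and an FDR. H3K27me3, NUP210 and NPC peaks are paired with gene bodies, and H3K4me3 peaks with the 4 kb on either side of a transcription start site (TSS), so peaks away from genes were not analysed here. Reads were divided by the size of the ChIP library relative to its IgG library (scaled reads). Relative to sg-Ctrl, sequencing of KO was deeper by a factor of 3.16 (H3K27me3) and 1.27 (H3K4me3). As a check of the cell type, 10 of 10 mammary epithelial markers and 0 of 10 markers of other cell types carried an H3K4me3 peak in sg-Ctrl, and the counts were the same in KO. Nup210 itself had a TSS peak of H3K4me3 in both, with 321 (sg-Ctrl) and 242 (KO) scaled reads for each kb, which does not show whether the protein was lost. Positions are those of the lists, which match GRCm38.

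The clusters differed in which mark they carried. In sg-Ctrl, H3K4me3 peaks covered 65.2 kb (66.2%) of the 98.4 kb between the first and last Hoxa gene, 5.6 kb (5.78%) of the 96.8 kb of Hoxd, and none of Hoxb (173.9 kb) or Hoxc (115.7 kb). H3K27me3 peaks covered 6.9 kb (6.99%) of Hoxa, 19.0 kb (10.9%) of Hoxb, 46.0 kb (39.7%) of Hoxc and 28.8 kb (29.8%) of Hoxd. In KO, H3K27me3 covered 0 kb of Hoxa, 86.6 kb (49.8%) of Hoxb, 11 kb (9.51%) of Hoxc and 28.8 kb (29.8%) of Hoxd. The span under listed H3K27me3 peaks was thus greater in KO at Hoxb, smaller at Hoxa and Hoxc, and of the same length at Hoxd. Only peaks that meet a gene body are listed, so a peak that met none in 1 of the libraries counts as no cover there. The part of this rule in the differences was not tested. Over the whole lists the KO peaks covered 1.19 times the length of the sg-Ctrl peaks, with 1.07 times on chromosome 6, 1.16 on chromosome 11, 1.25 on chromosome 15 and 1.20 on chromosome 2. H3K4me3 cover in KO was 65.6 kb at Hoxa, 0.8 kb at Hoxb, 2.0 kb at Hoxc and 7.2 kb at Hoxd.

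**Figure D1:**
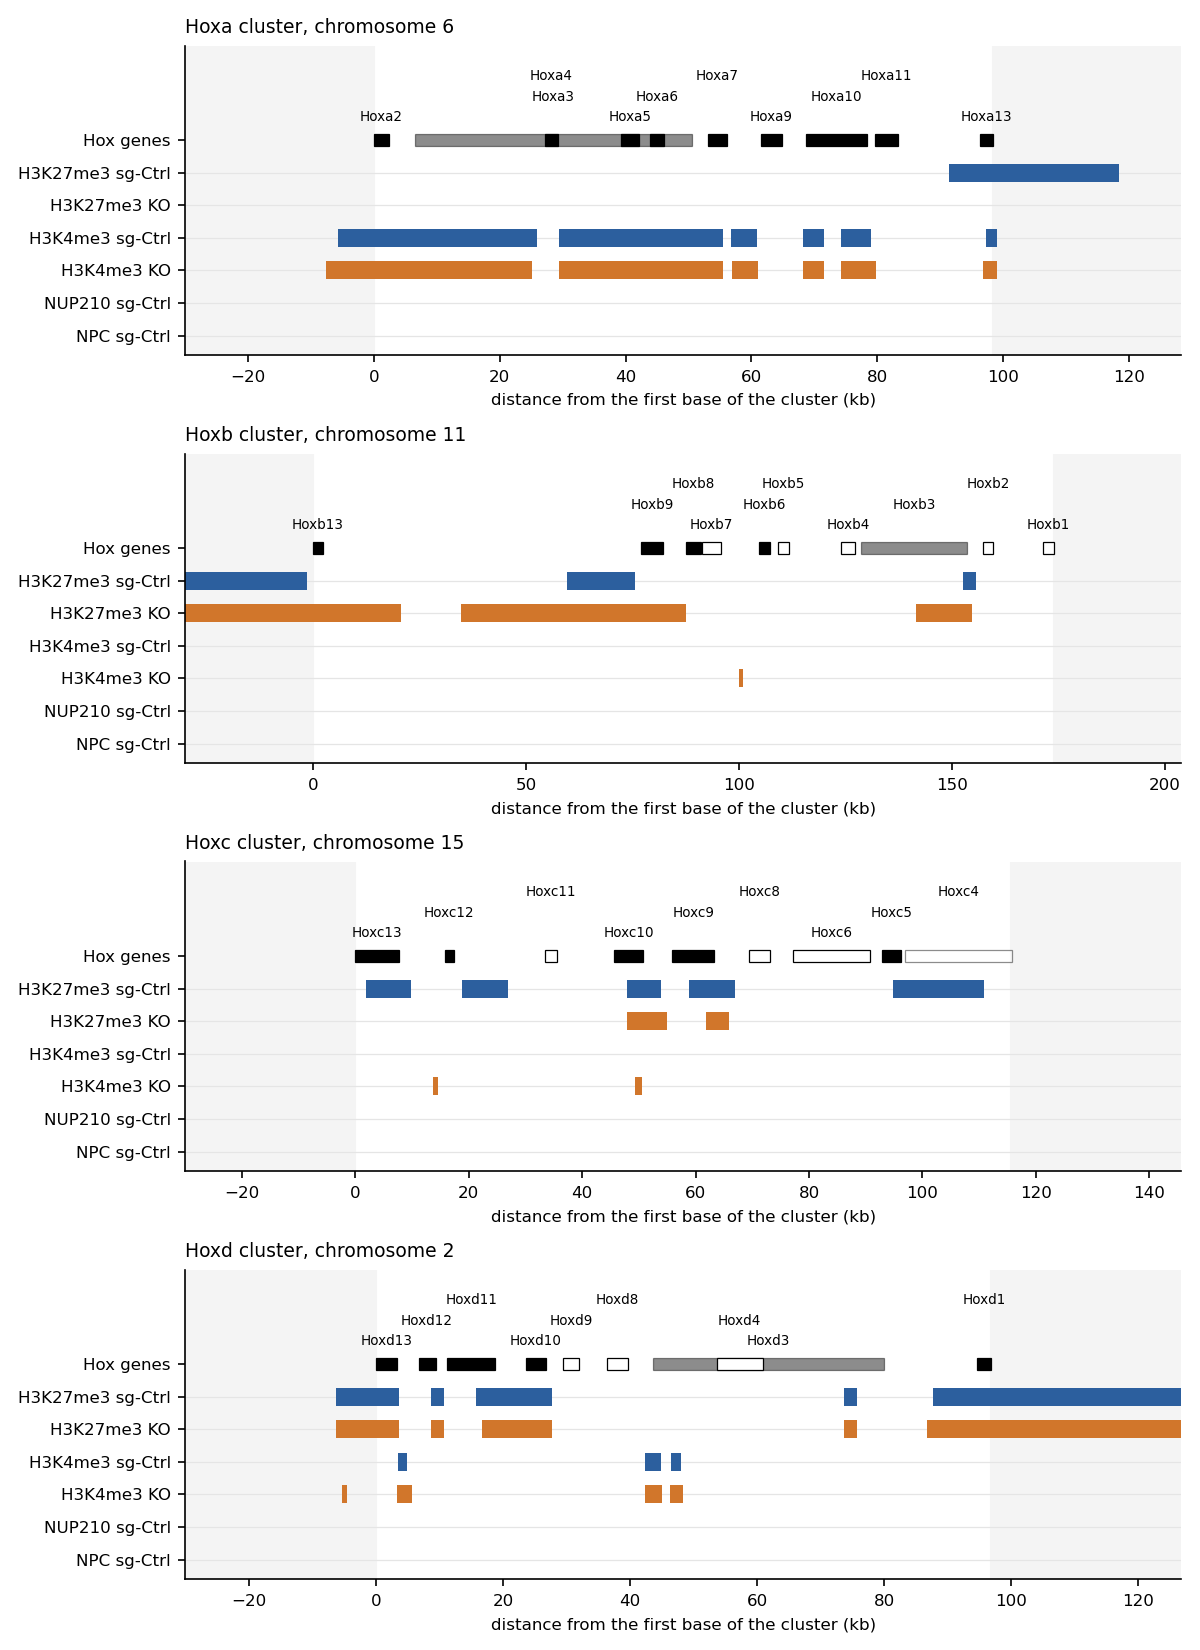
Peaks of the 6 lists along each Hox cluster, with the distance in kb from the first base of the cluster on the horizontal axis and 1 row per library. Filled gene boxes are Hox genes in any list, open boxes are Hox genes in none (placed by RefSeq), grey boxes are the long genes Hoxa3, Hoxb3 and Hoxd3, and the shaded margins lie outside the cluster. H3K4me3 (65.2 kb in sg-Ctrl) fills most of Hoxa, and H3K27me3 is longer in KO at Hoxb (19.0 to 86.6 kb) and shorter at Hoxc (46.0 to 11 kb). No listed NUP210 or NPC peak lies in any cluster. The lists of H3K27me3, NUP210 and NPC hold only peaks paired with gene bodies.

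For H3K27me3, 12 of the 38 genes carried a gene body peak in sg-Ctrl, where 26.8% of all genes in any list and 19.8% of RefSeq protein-coding genes did. In KO, 12 of 38 did as well, against 27.6% and 20.4%. These 12 genes lay under 11 distinct peaks in sg-Ctrl and 10 in KO, with widths of 2.0 to 68.0 kb and 2.0 to 69.0 kb. Both lists held 9 of the genes. Hoxa13, Hoxc5 and Hoxc13 were in the sg-Ctrl list alone, and Hoxb8, Hoxb9 and Hoxb13 in the KO list alone. Called at 1.5 times the covered length or presence in a single list, 4 genes gained (Hoxb3, b8, b9 and b13) and 4 lost (Hoxa13, Hoxc5, c9 and c13). Over the genes in either H3K27me3 list, 28.3% gained and 20.1% lost by the same rule. The like base for the Hox genes is not 38. It is those in either list, 9 in both, 3 in sg-Ctrl alone and 3 in KO alone. All 4 gains were Hoxb genes, and the losses were 3 Hoxc genes and Hoxa13. The genes of 1 cluster share peaks and are not independent of each other.

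At Hoxb, 3 sg-Ctrl peaks were longer in KO. The H3K27me3 library of KO was also the deeper, by a factor of 3.16, and the part of depth in peak length, here and at the other clusters, was not tested. The first, at chr11:96161001-96193000 in sg-Ctrl, held 945 ChIP reads (95% exact Poisson interval 886 to 1007) and 257 IgG reads. It lay over Ttll6, a tubulin polyglutamylase gene, and ended short of Hoxb13, which starts at 96194361. In KO the peak ran on to 96215000, held 4439 reads (4309 to 4572) and covered all 2239 bp of Hoxb13, a gene of the cluster's 5′ end known for its role in the prostate. The second, at chr11:96254001-96270000, held 376 reads and met no Hox gene of the list in sg-Ctrl. In KO it reached from 96229001 to 96282000 with 3226 reads. There it covered all 5264 bp of Hoxb9, which patterns the thorax, and the first 96 bp (2.81%) of Hoxb8, so Hoxb8 was gained by the edge of a peak. The third met Hoxb3, whose covered length was 930 of 24805 bp (3.75%) in sg-Ctrl and 11930 bp (48.1%) in KO. It was the only Hoxb gene with a peak in both lists. That peak was 3.0 kb with 78 reads in sg-Ctrl and 13 kb with 575 in KO. Hoxb1, at the other end of the cluster, had no peak of any kind.

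At Hoxc, 5 sg-Ctrl peaks were 2 in KO. Hoxc13, which acts in hair and nail formation and stands at the 5′ end, had 5814 of 7684 bp (75.7%) under a sg-Ctrl peak of 8.0 kb at chr15:102923001-102931000, with 227 ChIP reads (198 to 259) and 61 IgG reads. Hoxc5 had 1429 of 3422 bp (41.8%) under a sg-Ctrl peak of 16.0 kb at chr15:103016001-103032000, with 411 reads (372 to 453). Neither gene had an H3K27me3 peak in KO. The sg-Ctrl densities were 33.5 scaled reads per kb at Hoxc13 and 30.3 at Hoxc5. These exceed those of 85.4% of 4219 and 72.7% of 4556 KO peaks that were 0.5 to 2 times as wide. Hoxc9 fell from 4444 bp (59.9%) to 1444 bp (19.5%) under a peak that was 8.0 kb with 180 reads in sg-Ctrl and 4.0 kb with 287 reads in KO. In scaled reads this was 213 in sg-Ctrl and 107 in KO. Hoxc10, a gene of lumbar identity, had 2897 bp (56.8%) covered in both, under peaks of 174 and 474 reads (205 and 177 scaled reads). Hoxc4, at the 3′ end, was in no list by its symbol, but its RefSeq position lay under the sg-Ctrl peak of Hoxc5.

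At Hoxa, the only listed H3K27me3 peak lay at the 5′ end. Hoxa13, required for digits and the genital tract, lay wholly under a sg-Ctrl peak of 27 kb at chr6:52254001-52281000 with 811 reads (756 to 869) and 197 IgG reads, a deposited fold of 4.86. In KO no H3K27me3 peak was listed within 236.1 kb of the cluster. The sg-Ctrl density of 35.5 scaled reads per kb exceeded that of 78.2% of the 3593 KO peaks 0.5 to 2 times as wide. The other 9 Hoxa genes had no H3K27me3 peak in either list.

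At Hoxd, the 5 peaks were nearly alike in sg-Ctrl and KO. Hoxd13, the paralog of Hoxa13 that also patterns the digits, and Hoxd10 were wholly covered in both. Hoxd1, at the 3′ end, was wholly covered too, under a peak of 68.0 kb with 3629 reads in sg-Ctrl and of 69.0 kb with 8813 reads in KO. In scaled reads these were 4286 and 3293. Hoxd12 had 705 bp (26.2%) and Hoxd3 2000 bp (5.51%) covered in both. Hoxd11 had 3016 bp (40.4%) covered in sg-Ctrl and 2016 bp (27%) in KO, a log2 change of -0.58, the largest at Hoxd and short of the 1.5-fold call. The peaks at Hoxd10 and d11 and at Hoxd3 were weak against IgG, with folds of 1.82 and 1.78 in sg-Ctrl and 1.74 and 1.72 in KO, below the median of all H3K27me3 peaks (2.57 and 2.39).

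**Figure D2:**
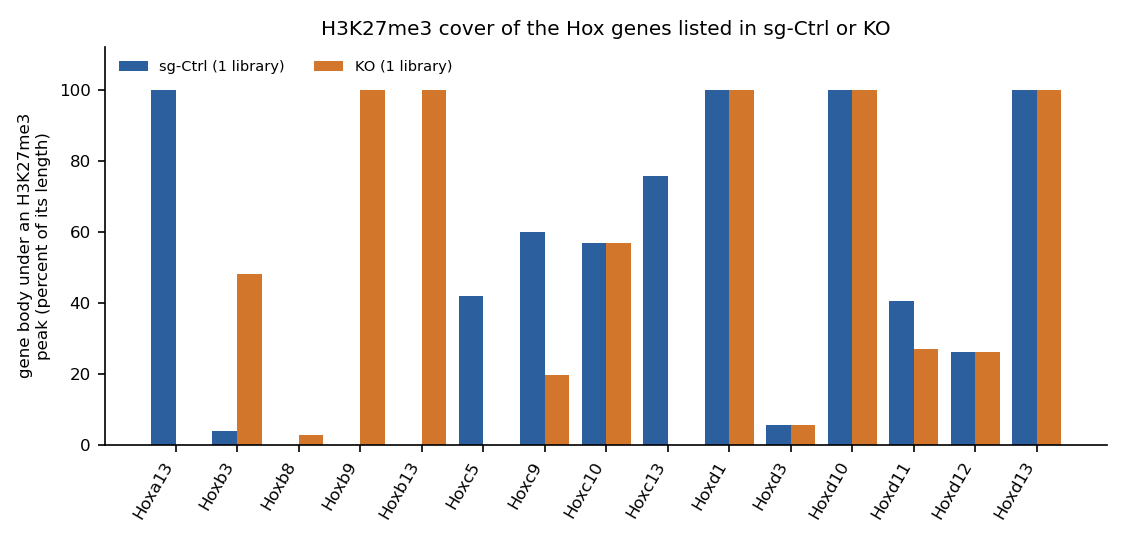
Percent of each gene body under an H3K27me3 peak (vertical axis) for the 15 Hox genes listed in sg-Ctrl or KO, with 1 library per bar. No error was computed for covered length, which depends on where peaks were called. The 4 Hoxb genes are higher in KO, Hoxa13 and 3 of the Hoxc genes are lower, and 5 of the 6 Hoxd genes are equal.

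Read amounts were compared over regions joined from both lists. Over the 10 joined regions with a peak in both lists, total scaled reads at Hoxb were higher in KO by log2 0.57 (0.47 to 0.67) at Hoxb13, 1.44 (1.29 to 1.60) at Hoxb8 and b9, and 1.22 (0.88 to 1.58) at Hoxb3. Per kb of peak the same regions were -0.18 (-0.28 to -0.08), -0.29 (-0.44 to -0.13) and -0.89 (-1.24 to -0.53). The sign of the Hoxb values thus depended on whether the longer KO peaks were summed or averaged. The Hoxc9 region was -0.99 in total and 0.01 per kb. The Hoxc10 region was -0.21 (-0.47 to 0.04) in total and -0.44 (-0.69 to -0.18) per kb. The Hoxd regions lay between -0.38 and -0.06 in total and between -0.40 and 0.06 per kb. Over all 6247 regions with a peak in both lists, the median was 0.02 in total and -0.14 per kb. Over the 10 Hox regions it was -0.08 in total, with 7 of 10 below 0. Scaled instead by the reads of the 832 H3K27me3 peaks with the same ends in both lists, it was 0.07, with 4 of 10 below 0. The Hoxd regions then lay between -0.23 and 0.09, so the sign of the small Hoxd values depended on the scaling.

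**Figure D3:**
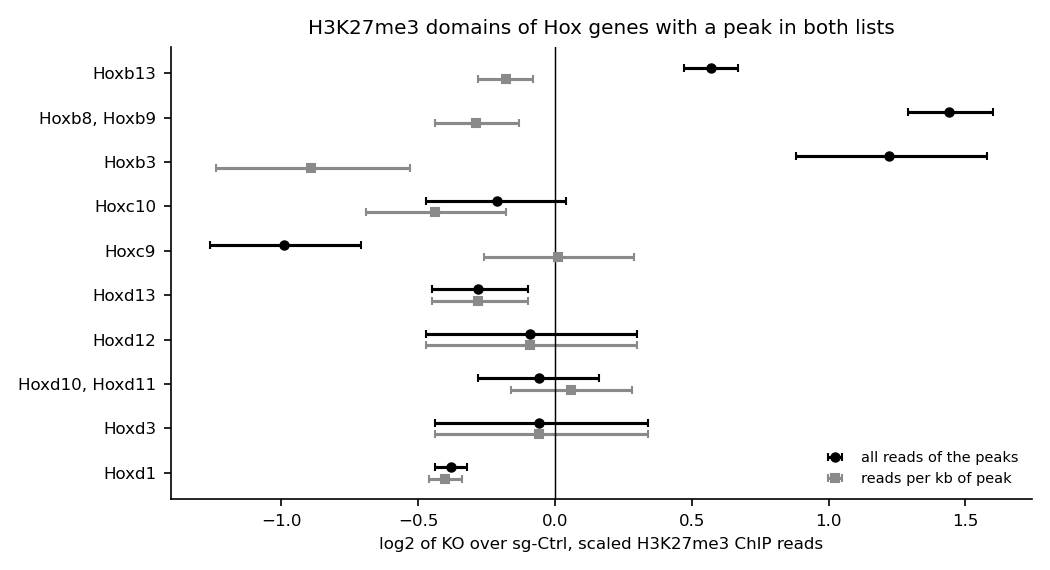
Log2 of KO over sg-Ctrl for scaled H3K27me3 reads in the 10 joined regions at Hox genes with a peak in both lists, as all reads (circles) and per kb of peak (squares), with 95% exact intervals for a ratio of 2 counts. The Hoxb regions lie above 0 in total (0.57 to 1.44) and below 0 per kb (-0.18 to -0.89), and the Hoxd regions lie between -0.40 and 0.06 over both scales.

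For H3K4me3, 12 of the 38 genes had a peak within 4 kb of a TSS in sg-Ctrl, where 67.1% of genes in any list and 52.8% of protein-coding genes did. In KO 16 did, against 67.0% and 52.8%. All 12 of the sg-Ctrl genes were in the KO list too, and 9 of them were Hoxa genes. Hoxa11, Hoxb6, Hoxc10 and Hoxc12 were added in KO, each by a peak that did not lie over the TSS.

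The Hoxa genes from a2 to a7 lay along a pair of wide H3K4me3 peaks. The one at the 3′ end was 31.6 kb wide in sg-Ctrl (chr6:52156801-52188400), with 21020 ChIP reads, 222 IgG reads and a fold of 89.3. It was the widest of the 11018 H3K4me3 peaks in its list, whose median width was 3400 bp. In KO it was 32.8 kb wide with 11149 reads and a fold of 33.8, and again the widest of 10854. The second was 26.0 kb wide in both (chr6:52192001-52218000), with 16362 reads in sg-Ctrl and 10824 in KO. Only 10 of the sg-Ctrl peaks and 13 of the KO peaks in the whole lists were 20 kb or wider. Peaks of 4.2, 3.2 and 4.8 kb followed toward Hoxa10 in sg-Ctrl, with 2045, 3305 and 4090 reads, and of 4.2, 3.2 and 5.6 kb in KO, with 1537, 2665 and 2776 reads.

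Not every Hoxa TSS lay under H3K4me3. A peak covered a TSS in 7 of the 12 genes in sg-Ctrl and 7 of the 16 in KO, where 92.6% and 92.5% of all genes in these lists had the peak over a TSS. In both libraries Hoxa2, a3, a5, a6, a10, a13 and Hoxd3 had it. In sg-Ctrl the TSS of Hoxa4 lay in a gap of 3.6 kb between peaks, that of Hoxa7 in a gap of 1.2 kb, that of Hoxa9 in a gap of 7.4 kb the downstream TSS of Hoxa10 in a gap of 2.8 kb and that of Hoxa11 in the widest gap, of 18.2 kb. The KO gaps were 4.4, 1.4, 7.2, 2.8 and 17.0 kb. Hoxa9, a gene known for its part in blood progenitors and leukemia, was therefore 3.43 kb from its nearest peak in both. Hoxa11 had no TSS peak in sg-Ctrl because the nearest one ended 4.17 kb away, and in KO the same peak reached 3.37 kb from its TSS, with 368 scaled reads for each kb.

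Promoter sequences from RefSeq (GRCm38.p6) were at hand for 22 of the 38 genes, in 24 promoters. The dinucleotide CG was counted over the 250 bases before each start. It was present in 100% of the member promoters and in 92.1% of 32851 promoters of all genes. The members held 2 to 35, with a median of 12.5 against 6 for all. The promoters of Hoxa5 (chr6:52204588-52204837, minus strand), Hoxa9 (chr6:52227371-52227620, minus strand), Hoxa13 (chr6:52260881-52261130, minus strand) and Hoxd1 (chr2:74762730-74762979, plus strand) are shown. They stand for a start under the 26.0 kb H3K4me3 peak, a start in a gap between H3K4me3 peaks, a start with both marks in sg-Ctrl, and a start with H3K27me3 alone. They are written 5′ to 3′ with CG in capitals.
Hoxa5: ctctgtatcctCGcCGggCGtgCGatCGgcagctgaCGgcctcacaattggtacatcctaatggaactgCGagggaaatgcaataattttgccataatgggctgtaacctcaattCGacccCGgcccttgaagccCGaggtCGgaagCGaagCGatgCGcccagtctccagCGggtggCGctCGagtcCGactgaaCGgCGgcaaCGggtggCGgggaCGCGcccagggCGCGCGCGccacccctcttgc
Hoxa9: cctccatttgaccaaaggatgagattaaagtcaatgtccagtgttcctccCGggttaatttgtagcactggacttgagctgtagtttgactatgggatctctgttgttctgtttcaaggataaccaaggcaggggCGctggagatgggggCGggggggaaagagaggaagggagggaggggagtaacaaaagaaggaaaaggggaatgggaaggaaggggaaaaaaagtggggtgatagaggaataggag
Hoxa13: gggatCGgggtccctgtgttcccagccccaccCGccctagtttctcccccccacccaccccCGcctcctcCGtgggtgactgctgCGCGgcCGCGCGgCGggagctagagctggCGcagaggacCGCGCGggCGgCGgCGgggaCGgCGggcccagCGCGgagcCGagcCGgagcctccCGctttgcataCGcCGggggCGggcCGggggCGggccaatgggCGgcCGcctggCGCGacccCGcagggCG
Hoxd1: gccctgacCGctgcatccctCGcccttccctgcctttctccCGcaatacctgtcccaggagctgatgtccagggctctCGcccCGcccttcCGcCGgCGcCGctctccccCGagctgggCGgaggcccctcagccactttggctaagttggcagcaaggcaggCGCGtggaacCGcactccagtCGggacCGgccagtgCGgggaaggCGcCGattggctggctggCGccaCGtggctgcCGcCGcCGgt

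Hoxa5 held 28 CG and Hoxa13 held 35, more than 92.4% and 97.0% of all promoters. Hoxd1 held 24, more than 88.0%. Hoxa9 held 3, more than 29.0%. The other starts in gaps did not share this count, with 7 at Hoxa7, 13 at Hoxa11 and 20 at the downstream start of Hoxa10, while Hoxa2, whose start lay under the widest peak, held 6.

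H3K4me3 was lower in KO along the wide Hoxa peaks and higher at weak peaks. For each gene the TSS peak with most scaled reads per kb was taken. Hoxa2, a hindbrain patterning gene, had 627 in sg-Ctrl and 252 in KO (log2 -1.31). Hoxa3, a5, a6 and a7 shared a peak with 593 and 309 (-0.94). Hoxa4 had 627 and 309 (-1.02), but from different peaks, because the KO end of the 31.6 kb peak lay 4.10 kb from its TSS and left the window. Hoxa9 and a10 shared the 3.2 kb peak with 974 and 618 (-0.66), which lay over no start of either gene. The peak over the upstream start of Hoxa10 had 803 and 368 (-1.13), past 2-fold, and -0.90 in total reads. Hoxa13 had 45.6, from 87 reads over 1.8 kb, and 95.1, from 282 reads over 2.2 kb (1.06, interval 0.71 to 1.43). Hoxd3, which acts in the neck and skull base, had 129 and 186 (0.52, interval 0.34 to 0.71). Hoxd12 and d13 shared a peak with 32.3, from 48 reads, and 53.2, from 172 reads (0.72, interval 0.25 to 1.21). That peak was 3.49 kb from the TSS of Hoxd13 and 1.81 kb from that of Hoxd12 in sg-Ctrl, and at 1.56-fold over IgG it was the weakest of the members' H3K4me3 peaks there.

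**Figure D4:**
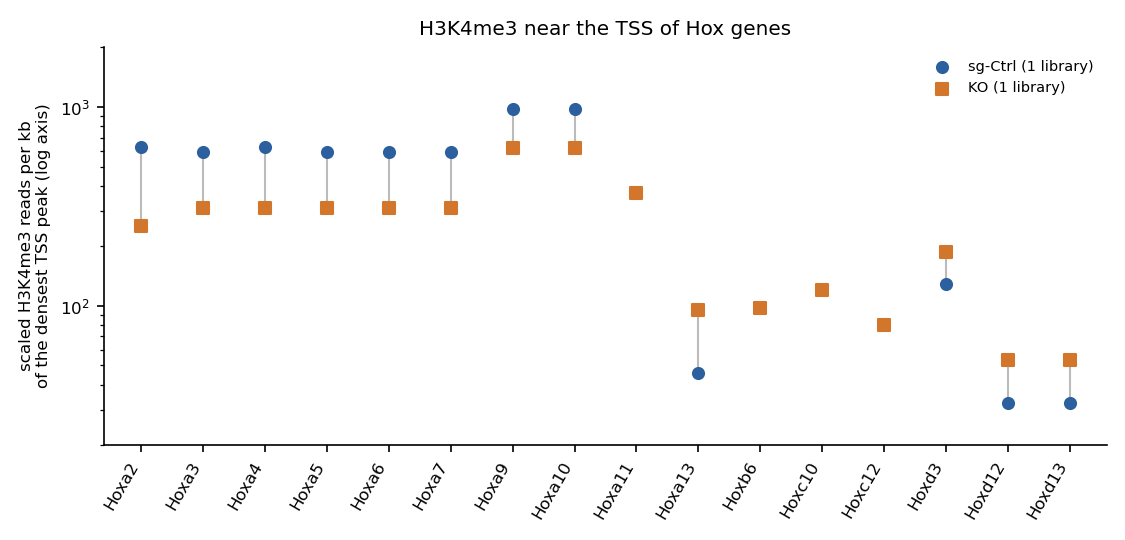
Scaled H3K4me3 reads per kb of the densest peak near the TSS (vertical log axis) for the 16 Hox genes with such a peak, in sg-Ctrl (circles) and KO (squares), with 1 library each. Genes from Hoxa2 to Hoxa10 lie between 593 and 974 in sg-Ctrl and are lower in KO, Hoxa13 and the Hoxd genes are higher in KO, and Hoxa11, Hoxb6, Hoxc10 and Hoxc12 have a KO value alone.

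By the 2-fold rule, Hoxa2 and Hoxa4 (the latter from different peaks) were lower among the 12 genes, where 9.66% of 12197 genes in both lists were. Hoxa13 was higher, where 0.525% were. Among genes with under 200 scaled reads per kb in sg-Ctrl, as Hoxa13 had, 5.37% were at least 2-fold higher. The median log2 over all 12197 genes was -0.50, and over the 12 Hox genes -0.80. Over the genes of chromosome 6 it was -0.59. The 12 Hox genes met only 9 distinct sg-Ctrl peaks, so a shared peak enters their median for each of its genes. They are not independent of each other. The ratio moved with the level in sg-Ctrl, and the Hox genes stood on both sides of that range. Genes with under 200 scaled reads per kb had a median of 0.02, and Hoxa13, Hoxd3, d12 and d13 were among them. Genes with 500 or more had a median of -0.64, and 13.4% of them were at least 2-fold lower. The other 8 Hox genes were among these genes, at -1.31 to -0.66. The 21 genes with a sg-Ctrl peak of 20 kb or more had a median of -0.94. Scaled by the reads of the 575 peaks with the same ends in both lists, the median of all genes became -0.03 and that of the Hox genes -0.33. Then 0 Hox genes were at least 2-fold lower, where 1.07% of all genes were. At least 2-fold higher were 3 (Hoxa13, Hoxd12 and d13), where 2.01% of all genes were. The part that level and scaling play in these ratios was not tested.

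**Figure D5:**
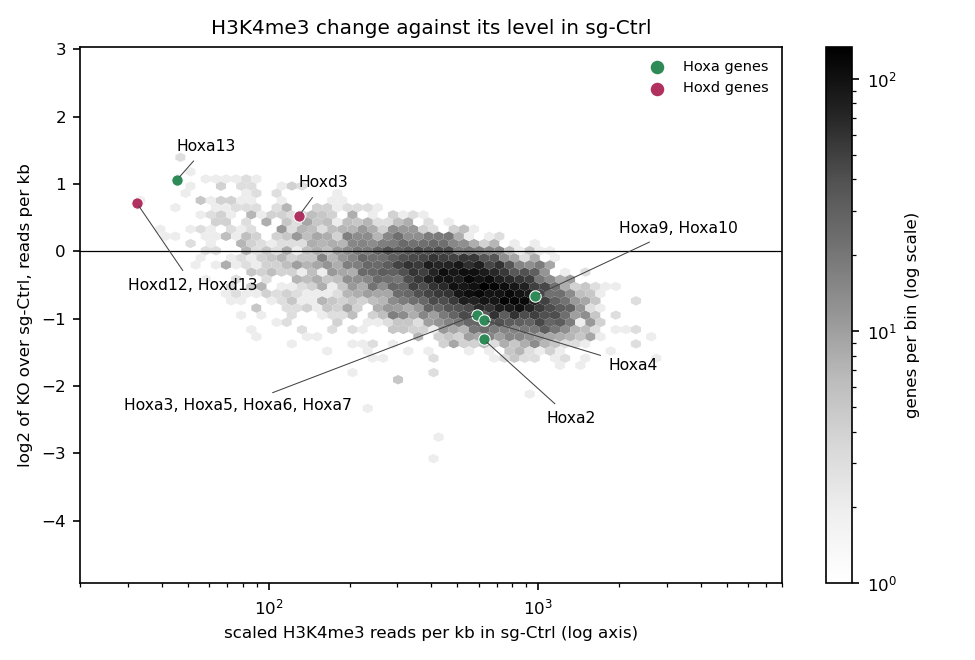
Log2 of KO over sg-Ctrl for scaled H3K4me3 reads per kb (vertical axis) against the sg-Ctrl level (horizontal log axis) for 12197 genes with a TSS peak in both lists, as shaded bins, with the 12 Hox genes as points. The Hoxa genes from a2 to a10 lie at 593 to 974 and below 0, near a cloud whose median is -0.64 from 500 upward, and Hoxa13, Hoxd3, Hoxd12 and Hoxd13 lie at low levels above 0.

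The peaks found in KO alone were short. Hoxb6 was paired with a peak of 0.8 kb and 105 reads that ended 3.97 kb from its TSS, Hoxc12 with one of 0.8 kb and 86 reads at 1.25 kb, and Hoxc10 with one of 1.2 kb and 194 reads at 3.6 kb. Their densities of 97.4, 79.8 and 120.0 scaled reads per kb exceeded those of 44.0%, 32.7% and 27.9% of the sg-Ctrl peaks 0.5 to 2 times as wide. Counting only peaks within 1 kb of the TSS, 9 genes had H3K4me3 in sg-Ctrl and 9 in KO, and the difference in the count was gone.

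A gene carries both marks here when it has an H3K4me3 peak near the TSS and an H3K27me3 peak on the body. Hoxa13, Hoxd3, d12 and d13 did in sg-Ctrl, 4 of 38 (26 of them in any list), where 3.90% of genes in any list did. Hoxc10, Hoxd3, d12 and d13 did in KO, 4 of 38 (26 in any list) against 3.24%. With a fold over IgG of at least 2 the counts were 1 (3.58% of genes) and 3 (2.78%), and with H3K4me3 within 1 kb of the TSS they were 2 (3.41%) and 1 (2.74%). Among genes no longer than Hoxa3 both marks were on 2.47% and 2.02%. The marks lay on the same bases at Hoxa13 in sg-Ctrl, where the whole 1.8 kb H3K4me3 peak was under H3K27me3, and at Hoxc10 in KO, where the whole 1.2 kb peak was. At Hoxd12 and d13 they met over 200 bp in sg-Ctrl and 400 bp in KO. At Hoxd3 they lay 14.6 kb apart at the nearest in both. Hoxa13 changed from both marks in sg-Ctrl to H3K4me3 alone in KO, with the H3K4me3 reads the higher in KO. A library is an average over many cells, so the lists do not show whether both marks were on the same chromosome.

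No Hox gene had a NUP210 or an NPC peak. NUP210 peaks met 33.9% of the genes in any list and 26.2% of protein-coding genes, and NPC peaks met 30.8% and 23.8%. Among listed genes no longer than the longest member (Hoxa3, 44006 bp), the shares were 25.3% and 22.2%, against 0 of 38. Only 26 of the 38 are in any list, so the like count is 0 of 26. This limit does not match the genes for length, because members such as Hoxa13 (2028 bp) and Hoxb9 (5264 bp) are far shorter. The 38 genes also stand in only 4 clusters and are not independent of each other. The NUP210 and NPC peaks were weak, with a median fold over IgG of 1.19 for NUP210 and 1.10 for NPC. With a fold of at least 2 required, the shares of genes in any list were 2.35% and 0.437%, again against 0 of 38. The nearest listed NUP210 peaks lay 43.9 kb from the Hoxd cluster, 146.5 kb from Hoxa, 221.7 kb from Hoxb and 326.1 kb from Hoxc. The nearest listed NPC peaks lay 61.9, 146.5, 453.4 and 332.1 kb away, in the same order. Both lists hold only peaks paired with gene bodies, so peaks between genes, in the clusters or around them, would not appear. NUP210 and NPC were not profiled in KO.

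The genes beside the clusters were read in the same lists. Of 13 flanking gene names (Lnp and Lnpk, which are the same gene, both counted), 11 were in any list. In sg-Ctrl 8 had H3K4me3, 2 H3K27me3, 6 NUP210 and 5 NPC, where 67.1%, 26.8%, 33.9% and 30.8% of genes in any list did. In KO 9 had H3K4me3 and 2 H3K27me3, against 67.0% and 27.6%. At Hoxd, Mtx2 (a mitochondrial import protein) had H3K4me3 at 904 (sg-Ctrl) and 362 (KO) scaled reads per kb, with a NUP210 and an NPC peak. Its H3K4me3 peak was 2.8 kb wide in sg-Ctrl and 5.6 kb in KO, and total scaled reads were 2530 and 2027 (log2 -0.32, against -1.32 per kb). Lnp had H3K4me3 at 580.3 and 474. Evx2, a homeobox gene next to Hoxd13, had an H3K4me3 peak in KO alone, with 96 reads over 0.8 kb, all of it under the H3K27me3 peak of Hoxd13. At Hoxa, Skap2 had 703 and 301 and Hibadh 567 and 305, each with NUP210 and NPC peaks. At Hoxb, Skap1 had 152.4 kb under H3K27me3 in sg-Ctrl and the same in KO, and a NUP210 peak, whereas Ttll6 had 4.5 kb under H3K27me3 in both. At Hoxc, Smug1 had H3K4me3 at 537 and 351, Cbx5 at 745 and 497 and Calcoco1 at 338 and 289, with no other peak.

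The miR-196 genes stand in 3 of the clusters and their products target Hox mRNAs, Hoxb8 among them. Their mature sequences from RefSeq (GRCm38.p6) are shown with the seed, bases 2 to 8, in capitals, because all 3 genes share it while the marks on them differed.
miR-196a-5p (Mir196a-1 and Mir196a-2): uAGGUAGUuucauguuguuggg
miR-196b-5p (Mir196b): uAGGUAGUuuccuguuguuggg

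Mir196b, between Hoxa9 and Hoxa10, was paired with the 3.2 kb H3K4me3 peak at 974 in sg-Ctrl and 618 in KO and had no H3K27me3. Mir196a-1, in Hoxb, was under H3K27me3 in both lists and had no H3K4me3. Mir196a-2, beside Hoxc10, was under H3K27me3 in both and had H3K4me3 in KO alone, at 120.0. Mir10a, Mir10b and Mir615 were in no list. Of 12 antisense or long noncoding RNA genes in the clusters, 4 were in any list. Hotair, transcribed between Hoxc11 and Hoxc12, was wholly under an H3K27me3 peak of 8.0 kb with 188 reads in sg-Ctrl and had none in KO.

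Genes that act with or on Hox genes were mostly under H3K4me3. All 9 TALE cofactors, homeodomain partners of Hox proteins, had an H3K4me3 peak in both lists, with a median log2 ratio of -0.51 beside -0.50 for all genes. Pbx4 was at 83.0 (sg-Ctrl) and 178 (KO) scaled reads per kb, and Pknox2 alone had H3K27me3 in both lists, over 208.3 and 241.3 kb. All 12 PRC2 genes had H3K4me3 and none had H3K27me3 in either list, with a median ratio of -0.53. Suz12, a core subunit, was at 1479.9 and 621 and Mtf2, an accessory subunit, at 1065 and 462. Of 18 PRC1 genes, 17 had H3K4me3 in both lists (median -0.26), and Phc2 had the lowest ratio, with 507 and 256. All 14 trithorax and H3K27 demethylase genes had H3K4me3 in both (median -0.45), with Kmt2b and Kmt2d given the value of the same older symbol, Mll2. Of 11 ParaHox and related homeobox genes, only Cdx1 was in any list, with 0.1 kb under H3K27me3 in KO.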

How the data were processed

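The data are 6 ChIP-seq peak lists of 4T1 cells, each from 1 library. The series also holds 4 RNA-seq samples, not used here, and 3 IgG samples, which enter by the control reads given for each peak. Peaks were called by the authors in SICER with IgG as control (window 200 bp for H3K4me3, otherwise 1000 bp). The authors deposited raw counts of ChIP and IgG reads per peak, not normalized, a p-value and FDR, and a fold over IgG, a ratio scaled by library size that uses 0.250 reads where IgG has none. The submitters' processing notes name Trimmomatic, STAR, Picard and Bowtie2 and the builds mm9, mm10 and NCBIM37, without roles. Gene positions fell within 50 bp of those in GRCm38.p6 for 89.9% of 17216 shared names.

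Entries that repeat a peak were collapsed. Library size relative to IgG was recovered from counts and fold. For H3K27me3 the value was 0.847 (sg-Ctrl) and 2.68 (KO), for H3K4me3 1.06 and 1.35, for NUP210 1.01 and for NPC 0.606. Peaks with the same ends in sg-Ctrl and KO (832 of H3K27me3, 575 of H3K4me3) had identical IgG reads, so both were called on a common IgG library. The lists hold 5866175 to 26811061 ChIP reads each, and total depth is otherwise unknown. Peaks were joined at 1 bp of overlap. Intervals are 95% exact Poisson, or conditional binomial for ratios, and cover counting error only. Genes with covered length at least 1.5-fold or H3K4me3 at least 2-fold different were called and read beside the share over all genes.

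The members and gene lists were chosen with earlier results of these data known. All members are accounted for, with values for those with H3K4me3, at cluster ends or, in each cluster, whose length under H3K27me3 changed most. Non-members were named from the flanking and ParaHox lists, and at most 3 a list otherwise by largest change. Lists were matched by symbol or RefSeq synonym. Alternatives were stricter peaks (FDR up to 0.01, or fold from 2 upward), other scalings, summaries, thresholds and backgrounds. The RefSeq position and protein-coding background and the 1 kb TSS window were chosen after seeing the data. The steps were tested on simulated data. Scripts ran in Python 3.11.15 (scipy 1.17.1, pandas 2.3.3, numpy 2.4.6), with plots from matplotlib 3.10.9.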

Additional observations from a re-analysis of the deposited data

How the results depend on the processing

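No paired analysis was possible because each ChIP-seq condition has 1 library, and no replicate could be left out. With an FDR of at most 0.01 the counts of members were as given, for every mark and cluster, and the background share for NPC fell to 17.2%. With a fold over IgG of at least 2, both marks were on 1 member in sg-Ctrl, H3K27me3 covered 14.8 kb of Hoxd in sg-Ctrl and 15.8 kb in KO, the background shares for NUP210 and NPC were 2.35% and 0.437%, and the median H3K4me3 ratio of the members was -0.94. Scaled by the reads of shared peaks, that median was -0.33, with 0 members 2-fold lower (1.07% of all genes) and 3 higher (2.01%). From total reads it was -0.85, with 3 higher (1.70% of all genes). From the sum of all TSS peaks it was -0.92, with 1 lower (9.21% of all genes). From the deposited fold 3 were higher (2.48% of all genes). With peaks within 1 kb of the TSS, 9 members had H3K4me3 in KO and 1 was lower (9.54% of all genes). The median was then -0.94, and both marks were on 2 members in sg-Ctrl and 1 in KO. Among genes no longer than the longest member, both marks were on 2.47% in sg-Ctrl and 2.02% in KO. The 4 gains of H3K27me3 stayed 4 in each alternative, and so did the 4 losses, although with 5 kb on either side of the gene body the losses were Hoxa13, Hoxc5, Hoxc12 and Hoxc13. Of 102 alternative values of the main results, 80 stayed within the limits set. The cause of the differences was not tested. Depth limits the weak peaks, such as the 48 H3K4me3 reads at Hoxd12 and d13.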

Other observations

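With genes found by symbol and sorted by position in the cluster, H3K27me3 was on 8 of the 16 genes of paralog groups 9 to 13 in sg-Ctrl and on 8 in KO, and on 4 of the 22 genes of groups 1 to 8 in each. All 4 genes of group 13, the 5′ end of each cluster, carried it in a list, but Hoxa13 and Hoxc13 did so in sg-Ctrl alone, Hoxb13 in KO alone and Hoxd13 in both. Found by RefSeq position, Hoxc4 of group 4 also lay under H3K27me3 in sg-Ctrl. H3K4me3 was on 5 of the 16 genes of groups 9 to 13 in sg-Ctrl and 8 in KO, and on 7 and 8 of the 22 others. These counts were read after the values were seen, genes that share a peak are counted separately, and no test was made.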
